A study of Mus musculus with 5 samples.

Results

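CTCF, its paralogue CTCFL and YY1 are zinc-finger proteins that bind DNA, and the first and last of them hold distant stretches of chromatin together. Their genes were chosen by name, from a rule that lists 8 genes of looping and cohesin: Ctcf, Yy1, Yy2, Ctcfl, Smc3, Smc1a, Rad21 and Stag2. Guides to 3 of the 8, Ctcf, Ctcfl and Yy1, were in the counts, and the other 5 genes were not analysed here. The 3 genes have 10 guides each, so 30 of 17820 guides and 3 of 1682 targeted genes are described.

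The libraries come from a pooled CRISPR screen of mouse embryonic stem (ES) cells, in which a lentivirus gives a cell the guide RNA that leads Cas9 to one gene. The read share of a guide stands for the share of cells that carry it. Transduced cells of genotype Ainv15(iNgn2 Tubb3::GFP), held in ES cell medium with Zeocin, were sampled once at each of days 5, 8 and 12. The plasmid pool from which the virus was made was sequenced in 2 libraries, which carry the same genotype label in the records although they are a DNA preparation. Days are counted from transduction in the titles, while the protocol dates the first sample from the start of selection. With 1 library per day, no comparison between days has a replicate culture, and the labels do not say whether the days are serial samples of 1 culture.

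CTCF halts cohesin, the ring complex that extrudes chromatin loops, and so sets loop anchors and insulates neighbouring domains. CTCFL, also called BORIS, has a similar zinc-finger array and is mainly made in male germ cells. YY1 binds promoters and enhancers, can pair with itself to bring them together, and also works with the INO80 remodeller and with polycomb proteins. Ctcf is known to be required for the growth of mouse ES cells, and Yy1 for the early mouse embryo.

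In the RefSeq table of GRCm38.p6 (mm10), Ctcf lies on chromosome 8 (105636474 to 105682922), Yy1 on chromosome 12 (108792945 to 108820148) and Ctcfl on chromosome 2 (173093609 to 173119525). The guides below are shown because they hold the 2 deepest losses of Ctcf (guides 5 and 10) and the mildest (guide 8), a guide that overlaps guide 5 (guide 7), the differing courses within Yy1, and the one Ctcfl guide called rising. Each is printed 5′ to 3′ as deposited, with the 10 bases at the 3′ end, next to the PAM in the target, in capitals. Guides are numbered within a gene in the order of the deposited tables.
Ctcf guide 5: tgttcagatgATTCCTCAGG
Ctcf guide 7: gtgtgttcagATGATTCCTC
Ctcf guide 10: tacactggcaTAATCACACA
Ctcf guide 8: ggtaaggtgtGACATATCAT
Yy1 guide 4: agatattgacCATGAAACAG
Yy1 guide 5: ggcaagaaacTCCCTCCTGG
Yy1 guide 7: acaggcaagaAACTCCCTCC
Yy1 guide 6: gaccacggtgGTGGGCGAGG
Yy1 guide 8: cgagaccacgGTGGTGGGCG
Yy1 guide 3: gcaccaggatCACCTCCTGG
Ctcfl guide 3: agctactgacCGTGCACCTG

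Several guides of one gene share most of their target. Counting guides that share 10 or more bases on either strand as 1 target stretch, the 10 Ctcf guides fall into 6 stretches, those of Ctcfl into 7 and those of Yy1 into 8. Ctcf guides 5 and 7 share 17 bases, as do Yy1 guides 5 and 7 and Yy1 guides 6 and 8. Guides of a gene are therefore not independent of each other, and they are not replicates of a time point. No member guide is listed under a second gene, and guides of Ctcf and Ctcfl differ from each other at 9 or more bases. Cut sites and partial matches elsewhere in the genome, such as Yy1 guides at Yy2, were not mapped here.

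The plasmid pool was read to 3541896 and 1350234 reads, and the cells to 1063071, 1082489 and 1008492 reads at days 5, 8 and 12. Guides with at least 30 reads in both plasmid libraries were kept, which left 15336 guides, among them all 10 of Ctcf, 8 of Ctcfl and 7 of Yy1. Counts were scaled to CPM with TMM factors. A guide's change is log2 of its CPM plus 1 over the mean plasmid CPM plus 1, and a gene's change is the median over its kept guides. The SD beside a median is over guides. The 893 kept non-targeting guides, the controls named as matching no gene, had a median log2 change of 0.41, 0.54 and 0.58 at days 5, 8 and 12, while the typical gene stood at 0.01 each day. A change is thus relative to the typical gene of the pool, and lies lower by those amounts when set against the controls.

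Guides to Ctcf were lost from the cells, all of them and from the first time point on. At day 12 the median log2 change was -2.65 (SD 1.26, n = 10 guides), which leaves 16.0% of the plasmid abundance. Each of the 10 guides was below 0 at day 5, at day 8 and at day 12. Each also had a falling trend over days in the quasi-likelihood test of edgeR, which enters the day as a number with the plasmid libraries at day 0.

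In summed reads, the 10 Ctcf guides held 1753 reads in plasmid library 1 and 746 in plasmid library 2, then 216 at day 5, 130 at day 8 and 69 at day 12. As RPM, the reads scaled to the total of their library with no further factor, that made 495 and 552 for the plasmid pool, 203 on day 5, 120 on day 8 and 68.4 on day 12. The 95% exact binomial intervals were 472 to 519 and 514 to 594 for the plasmid pool, 177 to 232 for day 5, 100 to 143 for day 8 and 53.2 to 86.6 for day 12. Each later time point thus lay below the earlier one, with no overlap of intervals between the time points. Such intervals cover counting error only, since reads are not separate cells.

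The gene median of Ctcf was -1.43 at day 5 (SD 0.86), -2.24 at day 8 (SD 1.18) and -2.65 at day 12 (SD 1.26; n = 10 guides each). The loss between sampled days was -0.95 from day 5 to day 8, with 10 of 10 guides below 0, and -0.53 from day 8 to day 12, with 7 of 10 below 0. The earlier of these intervals is 1 day shorter and shows the larger median, although the spread over guides (SD 0.57 and 0.93) is wide against the difference. Day 12 against day 5, which leaves the plasmid libraries out of the ratio, gave -1.22 (SD 1.00), again with 10 of 10 guides below 0.

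By size of change, Ctcf stood 53rd from the lowest of 1682 genes at day 5, 62nd at day 8 and 54th at day 12. A median log2 change of -1 or lower was reached by 6.3% of genes at day 5, 12.1% at day 8 and 15.8% at day 12, and Ctcf was past it each time. The share of genes past that fold in the comparison of day 12 with day 5 was 7.02%, and Ctcf was among them. Its place among the genes shifted little from day to day.

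The trend test called all 10 Ctcf guides, against a background of 24.0% of guides to genes falling and 16.1% rising. Of the 893 non-targeting guides the same test called 4.82% falling and 45.5% rising, so a rising call does not set a guide apart from the controls. The slopes of the 10 Ctcf guides ran from -0.60 to -0.13 log2 units per day, with edgeR adjusted p from 1.29e-06 to 0.0111 over 15336 guides. Genes whose kept guides all fell in this test made up 3.15% of the 1682. Without plasmid library 1, 8 of 10 Ctcf guides passed, without plasmid library 2 or without day 12, 9 did, and without day 5 or without day 8 all 10 did. The background moved too, from 3463 of 14443 guides to genes falling with all libraries to 2183 without plasmid library 1. It was 3186 without day 12, 3879 without day 5 and 2937 without day 8, and 2666 of 16369 without plasmid library 2.

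The controls give a second yardstick. The middle 95% of non-targeting guides spanned -1.11 to 1.24 at day 5, -1.01 to 1.38 at day 8 and -1.10 to 1.74 at day 12. Below that range lay 7 of 10 Ctcf guides at day 5, 8 at day 8 and 10 at day 12, where 11.2%, 17.6% and 19.9% of all guides to genes lay below it. By day 12 the value of every Ctcf guide thus lay below the middle range of control guides. The counting intervals of guides 2, 4, 8 and 9 still reached into that range, with upper ends of -1.07, -1.01, -0.69 and -0.98. Counting intervals are computed from pooled reads without the added 1 CPM, so their scale differs slightly from that of the range. For guide 2 the margin, -1.07 against -1.10, is too small to place its upper end.

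The Ctcf guides differed in depth and speed of loss. Guide 5 had 381 and 130 reads in the plasmid libraries, then 34 on day 5, 9 on day 8 and 1 on day 12, which is 1.05% of its plasmid CPM. With a single read left, the counting interval of its log2 ratio at day 12 runs from -11.92 to -4.13. It fell in step over all 3 days, from a log2 change of -1.63 at day 5 to -3.45 at day 8 and -5.65 at day 12.

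Guide 10 was lost at once. It had 117 and 57 reads in the plasmid libraries, then 3 on day 5, 1 on day 8 and 1 on day 12, and its log2 change was -3.33 at day 5 and -4.23 at day 12. The counting interval at day 5 was -5.94 to -2.08, so the drop was already below the whole middle range of control guides at the first time point.

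Guides 8 and 4 were the mildest. Guide 8 had 113 and 46 reads in the plasmid libraries, then 25 on day 5, 13 on day 8 and 10 on day 12, a log2 change of -1.54 at day 12. Guide 4 had 204 and 101 plasmid reads, 42 at day 5, 38 at day 8 and 18 at day 12, a log2 change of -1.73. Even these kept only 32.5% and 29.2% of their plasmid abundance.

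Guide 9 stood at -0.36 on day 5 and -0.86 on day 8, and reached -2.01 at day 12. Its counting intervals were -1.18 to 0.27 at day 5, on 20 reads, and -1.86 to -0.15 at day 8, on 14 reads. A late start of its loss is thus not resolved. Guide 2, at 9, 3 and 7 reads on days 5, 8 and 12, had its lowest point at day 8 (-3.19) and stood at -2.03 at day 12. At so few reads the order of its last 2 days is not resolved, as the counting intervals are -5.85 to -1.99 at day 8 and -3.48 to -1.07 at day 12. Guides 5 and 7, which share 17 bases, had log2 changes of -1.63 and -1.28 at day 5 and of -5.65 and -2.57 at day 12, with 1 and 6 reads left.

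Between guides of Ctcf the SD at day 12 was 1.26, against a median SD of 0.77 over the 1665 genes with at least 6 kept guides, and 12.2% of those genes had a larger one. All of that spread lay on the side of loss, between -5.65 and -1.54.

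The 5 genes nearest to Ctcf in the 3 medians, by Euclidean distance among 1665 genes, were Htatsf1, Taf13, Zfp407, Cebpz and Espl1, at distances of 0.077 to 0.293 log2 units. Htatsf1, a gene of an RNA-binding factor of splicing and elongation, had medians of -1.48, -2.19 and -2.62 at days 5, 8 and 12. Espl1, the farthest of the 5, codes for separase, the protease that opens cohesin rings at anaphase, and had -1.71, -2.25 and -2.58. Taf13, Zfp407 and Cebpz stood at -2.57, -2.73 and -2.85 at day 12. The distance covers 3 values that share the plasmid libraries as their reference, and it describes likeness of course only.

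Guides to Ctcfl, the germ-line paralogue, stood near the typical gene of the pool at every time point. The median log2 change was -0.02 at day 5 (SD 0.16), -0.10 at day 8 (SD 0.48) and 0.08 at day 12 (SD 0.48; n = 8 guides each). None of the 8 kept guides lay outside the middle range of the control guides at any of the 3 days, while 0.339%, 0.512% and 1.05% of guides to genes lay above it on days 5, 8 and 12 and the shares given above lay below it. The trend test called 0 falling and 1 rising by edgeR's adjusted p, where 45.5% of the control guides rose, and 0 fell at an unadjusted p under 0.05. DESeq2 gave the same 2 counts.

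All 10 Ctcfl guides together held 490 and 545 RPM in the plasmid libraries, then 503 on day 5, 519 on day 8 and 547 on day 12. The intervals, 467 to 514 and 506 to 586 in the plasmid pool, 462 to 548 at day 5, 477 to 564 at day 8 and 503 to 595 at day 12, overlap each of their neighbours in time. The order of the days is therefore not resolved for Ctcfl. In plasmid library 1 the summed amount of Ctcfl, 490 RPM, was close to the 495 RPM of Ctcf, although 2 Ctcfl guides and 0 Ctcf guides missed the read minimum.

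The rising guide was guide 3, with 119 and 61 reads in the plasmid libraries, then 46 on day 5, 80 on day 8 and 80 on day 12. Its log2 change was 1.11 at day 12, or 2.18 times its plasmid CPM (slope 0.10 per day, SE 0.02; edgeR adjusted p = 0.00389). It was not called when the trend was scaled to the non-targeting guides (edgeR adjusted p = 0.13) or without plasmid library 1. Guide 4, which shares 12 bases with it, stood at -0.36. Under that control scaling Ctcfl guides 2 and 4 fell, with edgeR adjusted p of 0.0499 and 0.0135, where 45.4% of guides to genes fell and 2.86% rose. Of the control guides themselves, 12.7% were still called falling and 10.4% rising in that fit.

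The 2 Ctcfl guides left out for low plasmid reads ended lower than any of the kept ones. Guide 7 had 49 and 22 plasmid reads, then 18, 11 and 5 at days 5, 8 and 12, a log2 change of -1.30 at day 12. That value lay below the control range, whose lower end was -1.10, as did 19.9% of guides to genes. Its counting interval of -3.11 to -0.15 reached into the range. Guide 10 had 70 and 26 plasmid reads, then 15, 17 and 8, a log2 change of -1.07. Neither had a trend that passed in the fit that kept them, at edgeR adjusted p of 0.176 and 0.158. With all 10 guides the gene median at day 12 was 0.01.

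Yy1 guides took differing courses, from near loss to values above the plasmid level, although none of the kept guides lay above the middle range of the control guides at day 12. The median log2 change at day 12 was -0.87 over the 7 kept guides, with an SD of 1.58 and a range of -2.96 to 1.70. That spread was larger than in Ctcf, and 3.96% of the 1665 genes had a larger one. The gene did not reach the fold threshold in that setting, and 289th from the lowest was its place among 1682 genes. With all 10 guides the median was -1.06 (SD 1.58), and 8 of 10 guides were below 0.

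The Yy1 medians over kept guides were 0.02 at day 5 (SD 0.91), -0.35 at day 8 (SD 1.25) and -0.87 at day 12 (SD 1.58; n = 7 guides each). Taking all 10 guides gave -0.53, -0.34 and -1.06 for days 5, 8 and 12. At day 5 the value turns on which guides and which plasmid library are used, as it was 0.31 without plasmid library 1 and -0.42 without plasmid library 2. Leaving out library 2 also admits all 10 guides, because the read minimum then rests on plasmid library 1 alone. Day 12 against day 5 gave -0.42 (SD 1.01), with 4 of 7 guides below 0.

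The trend test called 2 of 7 kept Yy1 guides falling and 2 rising, against 24.0% and 16.1% of all guides to genes and 4.82% and 45.5% of the control guides. Genes with at least 2 guides called in each direction made up 7.13% of the 1682. With all 10 guides 4 fell and 2 rose, in a fit where 3753 of 16595 guides to genes fell and 2711 rose. With scaling to the control guides 5 of 7 fell and 1 rose, where 45.4% of guides to genes fell and 2.86% rose. The control guides were called falling in 12.7% and rising in 10.4% of cases under that scaling. Without plasmid library 1, 1 of 7 fell and 2 rose, and without day 12, 1 fell and 1 rose. Of 14443 guides to genes, 2183 fell and 1197 rose without plasmid library 1, and 3186 fell and 1843 rose without day 12.

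Guide 4 showed the clearest loss. It had 213 and 72 reads in the plasmid libraries, then 24 on day 5, 10 on day 8 and 6 on day 12, or 11.3% of its plasmid CPM. Its log2 change was -1.28, -2.48 and -2.96 at days 5, 8 and 12 (slope -0.28 per day, SE 0.03; edgeR adjusted p = 2.32e-05). This course lay close to the Ctcf medians of -1.43, -2.24 and -2.65.

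Guides 5 and 7 share 17 bases, and both ended low. Guide 5 had 118 and 29 plasmid reads, 1 short of the minimum in library 2, then 11 at day 5, 5 at day 8 and 2 at day 12. Its log2 change at day 12 was -3.14, with a counting interval of -6.87 to -1.93, and in the fit that kept all guides its trend fell (edgeR adjusted p = 0.000176). Guide 7 had 157 and 58 plasmid reads, 56 at day 5, 29 at day 8 and 12 at day 12, and also fell (log2 change -1.69; edgeR adjusted p = 0.0289). At day 5 the pair still differed, at -1.31 for guide 5 and 0.28 for guide 7.

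Guide 9, with 32 and 16 plasmid reads, had 2 reads at day 5, 3 at day 8 and 1 at day 12. Its ratio to the plasmid CPM at day 12 was 0.105, with a counting interval of -8.53 to -0.65 on the log2 scale, and its trend fell in the fit that kept it (edgeR adjusted p = 0.00777). Of the 3 Yy1 guides below the read minimum, guides 5 and 9 were thus among the 4 that fell, and guide 10 (-0.69) did not pass.

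Guides 3 and 8 were called rising, as were 45.5% of the control guides. Guide 8 had 100 and 34 reads in the plasmid libraries, then 75 on day 5, 93 on day 8 and 83 on day 12, where it held 3.33 times its plasmid CPM. Its log2 change was 1.38 at day 5 (counting interval 0.94 to 1.79), 1.67 at day 8 and 1.70 at day 12 (slope 0.16 per day, SE 0.03; edgeR adjusted p = 0.000543). It lay above the middle range of control guides at day 5, as 0.339% of guides to genes did, and at day 8, as 0.512% did, and inside that range at day 12, whose upper end was 1.74.

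Guide 3 had 271 and 97 plasmid reads, 95 at day 5, 92 at day 8 and 133 at day 12, a log2 change of 0.93 (edgeR adjusted p = 0.015). Unlike guide 8, it stayed near its plasmid level until day 8 (0.28 at day 5 and 0.22 at day 8). At day 12 guide 3 lay 0.35 above the median of the control guides and guide 8 lay 1.12 above it. Scaled to the control guides, guide 8 still rose (edgeR adjusted p = 0.0067) and guide 3 did not pass (edgeR adjusted p = 0.622). In that scaling 10.4% of the control guides were themselves called rising.

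Guides 6 and 8 share 17 of their bases yet differed in sign at days 5 and 12. Guide 6 had 153 and 54 plasmid reads, 23 at day 5, 52 at day 8 and 15 at day 12, with log2 changes of -0.90, 0.23 and -1.32. Guide 8 was above its plasmid level at the same 3 days. The counting intervals at day 12, -2.26 to -0.64 for guide 6 and 1.28 to 2.10 for guide 8, do not overlap. The trend of guide 6, which moved up and down between days, did not pass (edgeR adjusted p = 0.198). The effect of either guide on YY1 protein was not measured here.

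Guides 1 and 2 lay between, at -0.87 and -0.59 at day 12, with edgeR adjusted p of 0.0625 and 0.136. Scaled to the control guides both fell, with edgeR adjusted p of 0.00231 and 0.00689. In that fit 45.4% of guides to genes and 12.7% of the control guides fell. Below the middle range of control guides at day 12 lay 3 of the 7 kept guides, namely 4, 6 and 7, where 19.9% of guides to genes lay below it. Guides 5 and 9, which missed the read minimum, lay below it as well.

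In summed reads, all 10 Yy1 guides held 436 and 402 RPM in the plasmid libraries, then 379 on day 5, 370 on day 8 and 326 on day 12. The intervals were 414 to 458 and 369 to 437 in the plasmid pool, 343 to 418 at day 5, 334 to 408 at day 8 and 292 to 363 at day 12. Neighbours in time overlap, while the day 12 interval lay below both plasmid intervals. Guides 3 and 8, picked after their rise was seen, held 24.0% and 24.1% of these reads in the plasmid libraries and 65.7% at day 12. The other Yy1 guides went from 331 and 305 RPM in the plasmid libraries to 112 RPM at day 12.

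Base composition moves with these values. Over non-targeting guides the slope of the log2 change per G or C base was 0.126 at day 5, 0.125 at day 12 and -0.0014 for day 12 against day 5. Ctcf guides hold 8 to 11 G or C bases of 20 with a median of 9, Ctcfl guides 11 to 15 with a median of 12, and Yy1 guides 7 to 15 with a median of 11. Yy1 guides 6 and 8 both hold 15, guide 3 holds 13 and guide 4 holds 7. After removal of the linear trend, the day 12 change was 1.21 for Yy1 guide 8, -1.81 for guide 6, 0.70 for guide 3 and -2.45 for guide 4. The 4 guides kept their signs, and the 10 Ctcf guides lay between -5.38 and -1.15.

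The 5 genes nearest to Yy1 in the 3 medians were Ssb, Ube2k, Phf8, Rad51b and Hltf, at distances of 0.057 to 0.194. With its wide spread, the median of Yy1 describes few of its guides, so this likeness is one of medians only. Those nearest to Ctcfl were Zfpm2, Rgs14, Zbtb7a, Stat2 and Myc, within 0.052.

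The wider pathway is thinly covered. Of 18 listed genes of cohesin subunits, loaders and regulators, 1 was analysed: Hdac8, the deacetylase that recycles cohesin, with a median of 0.91 at day 12 (SD 1.05, n = 7 guides, of which 4 rose and 1 fell). The control guides had a median of 0.58 at that day, and 45.5% of them were called rising. Core cohesin subunits were not analysed here.

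Of 16 listed CTCF partners and insulator or looping factors, 13 were analysed, with a median of -0.03 at day 12, beside 0.01 over all genes. A median of -1 or lower was reached by 3 of them, beside 15.8% of all genes, and of 1 or higher by 1, beside 1.19%. The RNA helicase gene Ddx5 stood at -2.08 with 7 of 7 guides falling, the poly-ADP-ribose polymerase gene Parp1 at -1.43 with 7 of 10 falling and 1 rising, and the zinc-finger gene Maz at -1.17 with 5 of 9 falling. Trp53 stood at 1.79 with 9 of 9 guides rising. Zfp143, whose protein is found with CTCF at loop anchors, was at -0.22, and Chd8, which codes for a CTCF-binding remodeller, at -0.03. By edgeR's adjusted p, 34 of the 119 guides fell (28.6%) and 20 rose (16.8%), shares near the 24.0% and 16.1% of all guides to genes, and 9 of the 20 were guides to Trp53.

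Of 30 listed YY1 family members and partners, 17 were analysed, with a median of -0.68 at day 12. A median of -1 or lower was reached by 7 of them, beside 15.8% of all genes, and of 1 or higher by 0, beside 1.19%. The helicase genes Ruvbl2 (-3.32, 9 of 10 guides falling) and Ruvbl1 (-3.16, 9 of 9), whose products sit in INO80 and in several other complexes, were lowest. Hdac3 (-2.21), Hcfc1 (-2.15), the polycomb ubiquitin ligase gene Rnf2 (-1.93), Hdac1 (-1.82) and Ep300 (-1.28) followed. Rybp, which links YY1 to polycomb, stood at -0.71, and Zfp42, a gene of the YY1 family that marks naive ES cells, at -0.27. Of 144 guides 63 fell (43.8%) and 15 rose (10.4%), beside 24.0% and 16.1% of all guides to genes. Many of these genes also act outside any complex with YY1.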

How the data were processed

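Guide reads from 5 libraries were used, 2 of the plasmid pool and 1 each of days 5, 8 and 12. Each deposited file lists unnormalized counts of reads for every guide, per the file headers. Processing used cutadapt, Bowtie and featureCounts with mm10, per the submitters' processing notes, and versions and settings are not stated there. The members and gene lists were chosen with earlier results of these data known. Guides needed at least 30 reads in both plasmid libraries. Counts were scaled with TMM in edgeR 4.0.16 (R 4.3.3), and log2 changes used a pseudocount of 1 CPM. A trend over days was fitted per guide in edgeR by its quasi-likelihood test over the 5 libraries (plasmid at day 0, 3 residual degrees of freedom), adjusted by Benjamini-Hochberg over 15336 guides at 0.05. Its spread rests on the plasmid pair and on departures from a straight course, so its p-values do not cover differences between cultures. Between single libraries no test was made, and a gene was past the fold threshold at a median of -1 or lower, or 1 or higher. On simulated counts for 15336 guides, the trend test called 96% of 50 guides at -0.2 per day, 38% of 50 at -0.1 and 0.152% of 15136 unchanged ones. The simulated counts held no shift of the control guides and no effect of base composition. In the real data the test called 4.82% of control guides falling and 45.5% rising, so 0.152% is not its rate of false calls here. Named were all genes and guides of the rule, list members, and the 5 genes nearest in course to each. DESeq2 1.42.0 and the alternatives in the closing part were also run. Intervals are exact (Clopper-Pearson).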

Additional observations from a re-analysis of the deposited data

How the results depend on the processing

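The log2 medians are given under alternatives that moved them beyond the counting interval of the summed reads. Scaled to the non-targeting guides, the median of all genes shifted to -0.39, -0.51 and -0.56 at days 5, 8 and 12, Ctcf stood at -1.82, -2.70 and -3.16, Yy1 at -0.38, -0.88 and -1.43, and Ctcfl at -0.43, -0.63 and -0.49. Genes past the fold threshold downward then numbered 216, 354 and 438 against 106, 204 and 265, and upward 1 at day 8 and 8 at day 12 against 3 and 20. In that scaling, chosen after seeing the data for the trend, 5 Yy1 guides fell and 1 rose, 2 Ctcfl guides fell and 0 rose, and 6669 of all guides fell and 506 rose, against 3506 and 2730. The test then still called 12.7% of the non-targeting guides falling and 10.4% rising. CPM of the library total moved the median of all genes to -0.10 at day 12.

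With at least 1 or at least 10 plasmid reads, Yy1 stood at -0.53 at day 5 and -1.06 at day 12, and 4 of its guides fell. Of all guides, 3797 of 17595 and 3775 of 17375 fell in these fits. With at least 100 plasmid reads Yy1 had no guide left, Ctcf stood at -1.72 at day 8 over 3 guides, of which 3 fell, 0 Ctcfl guides rose of 2, 1139 of 4452 guides fell and 982 rose, and 3, 10 and 40 genes were past the threshold upward at days 5, 8 and 12. With a pseudocount of 5, Ctcf stood at -1.87 at day 8 and -2.13 at day 12, and 58 genes were past the threshold downward from day 5 to day 12, against 118. The mean over guides put Yy1 at -0.14 at day 5 and -0.69 at day 12. The GC correction put Ctcfl at -0.069 at day 12 and 5 genes past the threshold upward at day 8. Without 1 plasmid library Yy1 ranged from -0.42 to 0.31 at day 5, from -0.42 to -0.091 at day 8 and from -1.24 to -0.71 at day 12. Of its guides 1 to 3 fell, of Ctcfl guides 0 to 1 rose, and of all guides 2198 to 2681 fell and 1403 to 1881 rose. Without the day 12 library 1 Yy1 guide fell and 1 rose, where 3226 of 15336 guides fell and 2241 rose. Beyond what these settings are, the cause of each move was not tested.

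The median of Ctcf was at -1.257 or lower at each of the 3 days in every alternative run. No paired analysis was possible because each day has 1 library, so the groups share fewer than 2 replicate numbers. At 47 reads per kept guide at day 12, losses deeper than a few reads are not resolved.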
